A study of Mus musculus with 19 samples.

Results

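Binding of YAP and TEAD was examined at the genes for ATP-binding cassette (ABC) proteins, taken as the protein-coding genes of the GENCODE annotation for the mm9 mouse assembly (NCBIM37) whose symbol starts with Abc, a letter from a to g and a number. This rule found 50 of the 22350 protein-coding genes on the numbered chromosomes and X, of which 16 were in subfamily ABCA, 10 in ABCB, 10 in ABCC, 4 in ABCD, 1 in ABCE, 3 in ABCF and 6 in ABCG. A gene was counted as bound when a peak overlapped its body or the 10 kb on either side by at least 1 bp, and as bound at a promoter when a peak reached into the window of 2000 bp before to 1000 bp after any annotated start. The other 22300 protein-coding genes, counted in the same way, gave the background.

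The data were ChIP-seq (chromatin immunoprecipitation followed by sequencing) peak lists from whole mouse liver on a C57BL/6 background, with antibodies against YAP (YAP1 63.7) or TEAD. All animals carried ROSA26-rtTA-IRES-EGFP and were given doxycycline in their food: WT livers lacked the YAP transgene and were treated for 7 days, while tetYAP livers, in which doxycycline switches on a constitutively active YAP, were treated for 3 days (3 d) or 7 days (7 d). According to the study's methods an albumin-driven Cre restricted the transactivator to hepatocytes, and the TEAD antibody was raised against TEAD4. There were 3 samples in each group and 4 for TEAD at 7 d, 19 in all. Since the replicates of a group were merged before peaks were called, each group had 1 list, and no difference between conditions could be tested. The merged libraries held 34260362 to 55032002 tags, and the lists 156 (WT), 110 (3 d) and 1478 (7 d) peaks for YAP and 5695, 36446 and 38984 peaks for TEAD.

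ABC transporters spend ATP to move lipids, bile acids, drugs and other solutes across membranes. In hepatocytes those of the canalicular membrane secrete bile salts, phospholipid, sterols and conjugates into bile, those of the sinusoidal membrane export towards blood, and others serve peroxisomes or mitochondria, whereas ABCE and ABCF proteins have no membrane part and work in translation. YAP does not bind DNA itself and is recruited mainly through TEAD factors, which recognise the sequence GGAATG.

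Sequence at the sites on which the results turned is shown as the plus strand of mm9. The first 4 are from TEAD peaks of 7 d that overlapped a YAP peak of 7 d. For Abca4, Abca9 and Abca8b they are the 100 bp around the TEAD summit. For Abcg5 and Abcg8 they are the 109 bp between the divergent starts, which hold the TEAD summit. This stretch lies outside the YAP peak, which begins past its end, at chr17:85082487. The other 3 are the 100 bp around the strongest TEAD summit at 7 d in Abcg8, Abcd2 and Abcb11. Capitals mark GGAATG or its reverse complement CATTCC.
Abca4, chr3:121825238-121825337: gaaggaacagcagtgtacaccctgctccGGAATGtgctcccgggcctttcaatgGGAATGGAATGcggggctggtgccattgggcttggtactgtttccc
Abca9, chr11:110028872-110028971: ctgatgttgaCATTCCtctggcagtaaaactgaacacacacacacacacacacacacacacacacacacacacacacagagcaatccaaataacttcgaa
Abca8b, chr11:109788168-109788267: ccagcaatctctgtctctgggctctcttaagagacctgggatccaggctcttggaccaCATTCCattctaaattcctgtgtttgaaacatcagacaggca
Abcg5 to Abcg8, chr17:85082352-85082460: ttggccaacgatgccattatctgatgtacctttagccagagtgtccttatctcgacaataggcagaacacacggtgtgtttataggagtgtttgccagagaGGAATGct
Abcg8 intron, chr17:85088733-85088832: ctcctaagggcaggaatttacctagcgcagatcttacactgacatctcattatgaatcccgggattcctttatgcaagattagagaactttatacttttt
Abcd2, chr15:91021500-91021599: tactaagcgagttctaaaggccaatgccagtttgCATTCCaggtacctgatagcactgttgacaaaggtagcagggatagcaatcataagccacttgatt
Abcb11 intron, chr2:69127243-69127342: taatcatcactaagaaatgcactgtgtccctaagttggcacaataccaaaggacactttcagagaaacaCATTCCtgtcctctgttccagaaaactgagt
The Abca4 site held 3 copies of the motif, of which a pair overlapped by 1 base, whereas the Abcg8 intron site held none. At Abca9 the motif stood next to a run of CA repeats.

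YAP was called at ABC genes only in the list of 7 d, where 6 of the 50 genes (12%) were bound, namely Abca4, Abca6, Abca8b, Abca9, Abcg5 and Abcg8. Among other genes the share was 4.78%. At promoters, YAP was called for 4 ABC genes (8%), Abca4, Abca9, Abcg5 and Abcg8, against 1.02% of other genes. In the WT and 3 d lists no ABC gene was bound by YAP. These lists are short and the background shares were small, 0.117% and 0.161% of other genes for the body with flanks and 0.0359% and 0.0717% for promoters, so that fewer than 1 of 50 genes would carry a peak at these rates. The 6 genes shared 4 peaks, because neighbouring genes have overlapping windows. The 4 genes with a YAP promoter peak shared 3 peaks. When the 50 windows were merged into 43 that do not overlap, 4 held a YAP peak of 7 d and 3 a YAP promoter peak.

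**Figure D1:**
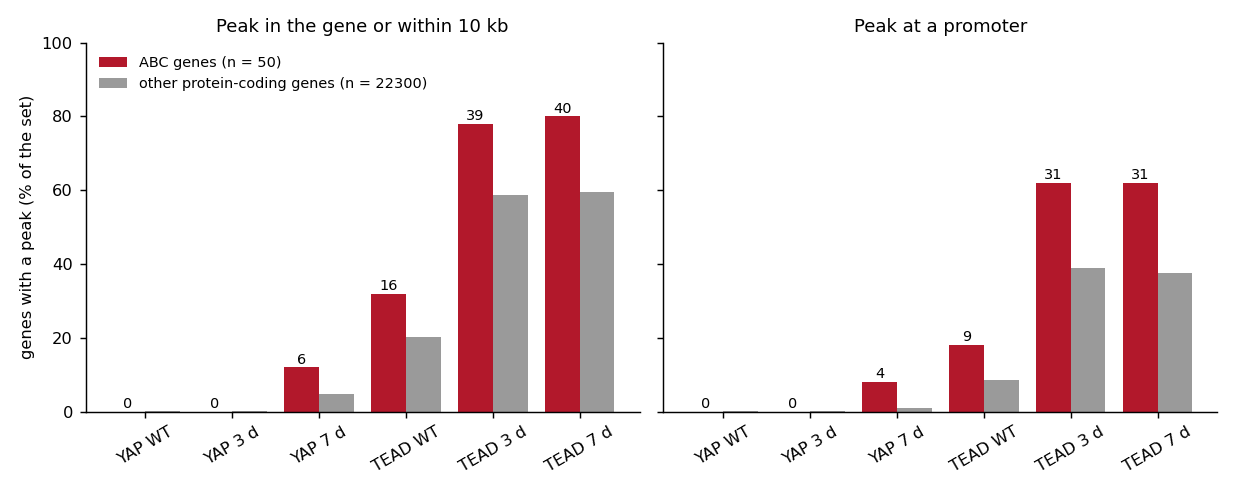
Share of genes with a peak (% of the set) in each of the 6 lists, in the gene body or within 10 kb (left) and at a promoter (right), for ABC genes (red, n = 50, with their number above the bar) and other protein-coding genes (grey, n = 22300). ABC genes had the larger share in the YAP list of 7 d and in each TEAD list, and no YAP peak in WT livers or at 3 d.

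Abcg5 and Abcg8 encode the pair of subunits of the sterol exporter of the canalicular membrane, and lie head to head on chromosome 17. They shared 1 YAP peak (chr17:85082487-85082925), whose summit lay 303 bp downstream of the nearest Abcg8 start. It had 24 fragments over its summit (95% exact Poisson interval 15.4 to 35.7, for counting error only), an enrichment of 5.24 times over the local background, and rank 1075 of 1478 by p-value. TEAD was called at this promoter in all 3 TEAD lists, with 57 fragments (43.2 to 73.9) in WT, 133 at 3 d (111 to 158) and 154 at 7 d (131 to 180), and fold enrichments of 7.58, 21.8 and 36.3. Fragments are given here as raw numbers, which are not scaled to depth, and the TEAD libraries held 35168765 tags in WT, 55032002 at 3 d and 38523843 at 7 d. Per 1000000 tags this promoter had 1.62, 2.42 and 4 fragments. The TEAD summit of 7 d was 32 bp upstream of the Abcg5 start and 78 bp upstream of an Abcg8 start, in the sequence shown between them. Another TEAD site, without a YAP call, lay in an intron of Abcg8, 6289 bp downstream of its nearest start at 7 d, with fold enrichments of 6.51 in WT, 26.4 at 3 d and 38.4 at 7 d. Both sites were thus called before induction and had a higher enrichment in each list after it. Fragments and fold enrichments of WT livers are not on the scale of the later lists, because the caller used fragments of 400 bp there and of 207 bp and 206 bp at 3 d and 7 d.

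Abca4, best known as the retinoid transporter of photoreceptors, had the YAP peak with the highest enrichment of the 4 (chr3:121825188-121825457), with 30 fragments (20.2 to 42.8), a fold enrichment of 6.55 and rank 540. This peak was a promoter peak only by the start of a retained-intron transcript inside the gene, and its summit was 78.0 kb downstream of the first base of Abca4. With starts of protein-coding transcripts alone, 3 ABC genes were left with a YAP promoter peak. The TEAD peak at the same place was the strongest of any ABC gene in each TEAD list, with 112 fragments (92.2 to 135) in WT, 225 at 3 d (197 to 256) and 187 at 7 d (161 to 216). Per 1000000 tags these were 3.18, 4.09 and 4.85 fragments, so that the fall in the raw number from 3 d to 7 d was not present after scaling to depth. It ranked 116 of 5695, 116 of 36446 and 380 of 38984. Its fold enrichment was 14.4, 36.9 and 44.1 in these lists. Abca4 carried 3 TEAD peaks in WT, 11 at 3 d and 12 at 7 d.

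The remaining YAP peaks were in the group of ABCA genes on chromosome 11. One lay in the promoter of Abca9 (chr11:110028731-110029161), 410 bp downstream of a start, and also fell in the downstream flank of Abca6. It had 29 fragments (19.4 to 41.6), a fold enrichment of 6.33 and rank 586. The TEAD peak there had 31 fragments in WT (21.1 to 44.0), then 52 at 3 d (38.8 to 68.2) and 84 at 7 d (67.0 to 104), with fold enrichments of 3.59, 6.58 and 16.6. Per 1000000 tags it had 0.945 fragments at 3 d and 2.18 at 7 d. The WT value, 0.881, came from fragments of 400 bp and is not on their scale. Another was past the end of Abca8b (chr11:109788077-109788399), 68.8 kb from its nearest start, with 28 fragments (18.6 to 40.5), a fold enrichment of 6.11 and rank 656. TEAD had fold enrichments of 4.39, 6.23 and 17.1 at this site. At these sites the TEAD enrichment of 7 d was 2.52 (Abca9) and 2.75 (Abca8b) times that of 3 d. All 4 YAP peaks overlapped a TEAD peak in each of the 3 TEAD lists, and among all 1478 YAP peaks of 7 d this held for 54.8% with the WT list, 89.6% with the 3 d list and 95.2% with the 7 d list.

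TEAD was called at 16 ABC genes (32%) in WT, against 20.1% of other genes. At promoters the count was 9 (18%) against 8.68%, and these genes included Abca1, Abca4, Abca9, Abcb8, Abcd2, Abcf2, Abcg5 and Abcg8. After induction TEAD was called at 39 ABC genes (78%) at 3 d and at 40 (80%) at 7 d, against 58.8% and 59.6% of other genes. Promoter peaks were found at 31 (62%) in both lists, against 38.8% at 3 d and 37.5% at 7 d. Most of this step was thus present at 3 d. No ABC gene had a YAP peak at 3 d, but that YAP list held 110 peaks and reached 0.161% of other genes. It therefore cannot show whether TEAD came before YAP at these genes. All 16 genes bound in WT livers were also bound at 3 d and at 7 d, as were 4448 of the 4484 other genes bound in WT, so that this was the background rate. A further 22 (44%) had TEAD at 3 d and 7 d but not in WT, against 34.9% of other genes, and for promoters this pattern was found in 19 (38%) against 25.1%. The number of bound genes depended on the length of the list. With each TEAD list reduced to its strongest 5695 peaks, 16 ABC genes were bound in WT, 17 at 3 d and 19 at 7 d, against 20.1%, 19.7% and 18.1% of other genes.

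**Figure D2:**
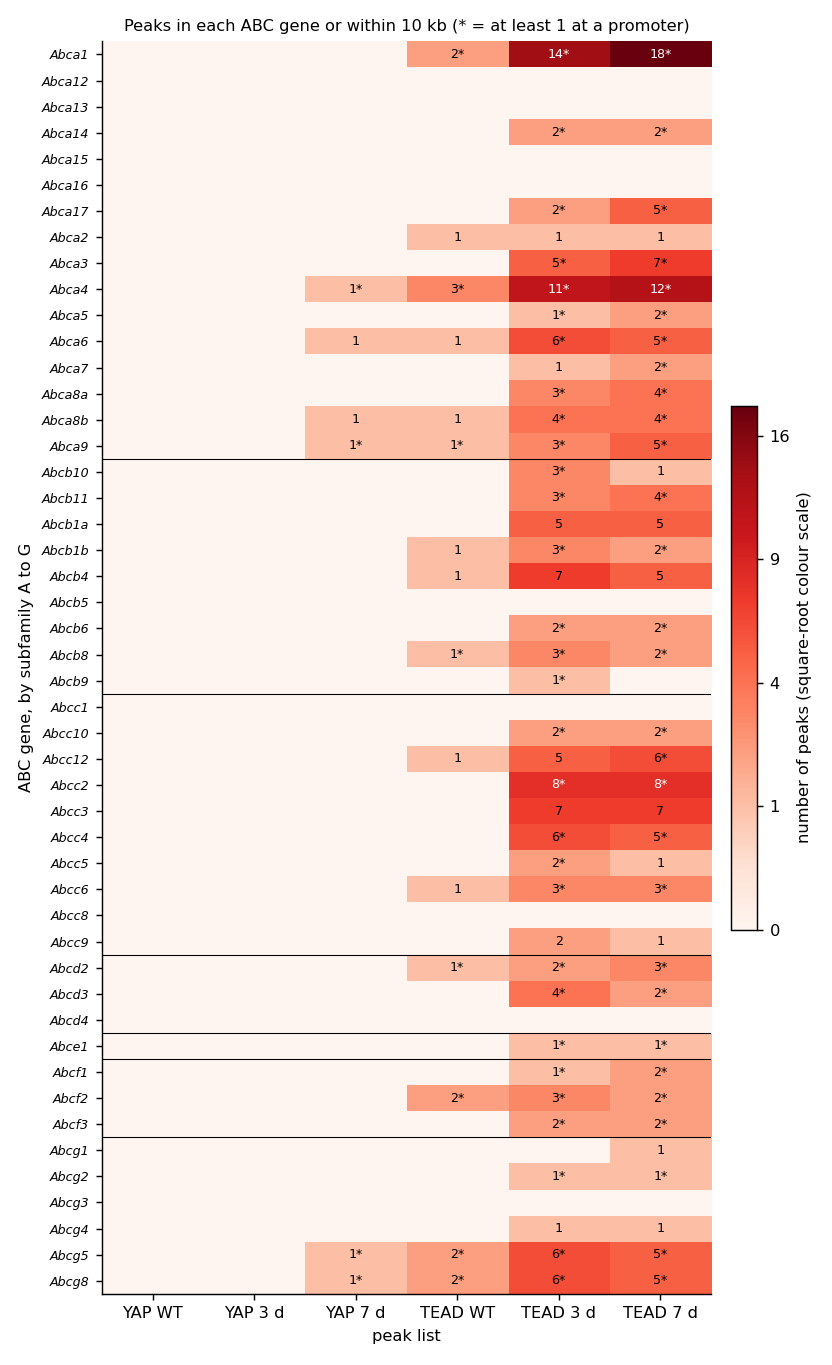
Number of peaks in or within 10 kb of 48 of the 50 ABC genes, with genes in rows by subfamily and the 6 lists in columns, and an asterisk where at least 1 peak was at a promoter. TEAD peaks filled in at 3 d and 7 d in every subfamily, up to 18 peaks in Abca1, and 9 rows stayed empty.

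No peak of any list was found at Abca12, Abca13, Abca15, Abca16, Abcb5, Abcc1, Abcc8, Abcd4 or Abcg3. Abcb9 had TEAD at 3 d alone, and Abcg1 at 7 d alone. The single peaks of Abcb9 and Abcg1 had 27 fragments each and ranked 29141 of 36446 and 25481 of 38984, far down their lists.

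Bound genes differed in how many TEAD peaks they carried. At 7 d the 40 bound genes had a median of 2 peaks (range 1 to 18), with 9 genes at 1 peak and 14 at 5 or more. Other bound genes were not counted in this way, and ABC genes are longer (median body 64.6 kb against 15.4 kb). Per 100 kb of window, all ABC genes had 3.08 TEAD peaks at 7 d and other genes 2.76. Abca1, which loads cholesterol onto nascent HDL, had the most, with 2 peaks in WT, 14 at 3 d and 18 at 7 d, or 12.1 per 100 kb of window at 7 d. Abcg8, Abcg5 and Abcc2 followed in density, with 11.4, 11.2 and 10.6 peaks per 100 kb, and Abcg5 and Abcg8 shared most of their peaks. The strongest Abcg8 peaks at 7 d, with fold enrichments of 38.4 and 36.3, exceeded every Abca1 peak, while its others had 9.19, 7.78 and 5.42. In Abca1 the highest fold enrichment at 7 d was 14.1, at an exon. The peak with the lowest p-value had 13.3, lay in the downstream flank and was nearest to a start of Nipsnap3b, and the peak at the Abca1 start had 8.95.

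The 19 TEAD peaks of WT livers at ABC genes all overlapped a peak at 3 d and at 7 d, and of all 5695 WT peaks 98.4% and 95.4% did. Their median fold enrichment was 4.52 in WT livers (range 3.59 to 14.4), then 10.7 at 3 d (5.59 to 36.9) and 17.1 at 7 d (8.18 to 44.1). The WT values came from fragments of 400 bp and are not on the scale of the later lists. The 7 d value was above the 3 d value at 18 of the 19, and only the site at the Chpf2 start upstream of Abcf2 had 9.97 at 3 d and 9.91 at 7 d. A rise from 3 d to 7 d was general: over all 23287 TEAD peaks with summits at most 100 bp apart in these lists, the median ratio of fold enrichment was 1.36. The step from WT to 3 d was not compared with that of all peaks. The sites called after induction alone were weaker, with a median fold enrichment of 5 at 3 d over 116 peaks and 6.61 at 7 d over 118. The WT sites also had to be called in the shorter WT list, so a difference of this kind can follow from the choice of sites. Among the stronger sites called after induction alone was a peak in an intron of Abcb11, with a fold enrichment of 25.4 at 7 d. Among the WT sites, 4 were nearest to the start of a gene that is not an ABC gene, next to Abca1, Abca2, Abcc6 and Abcf2.

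**Figure D3:**
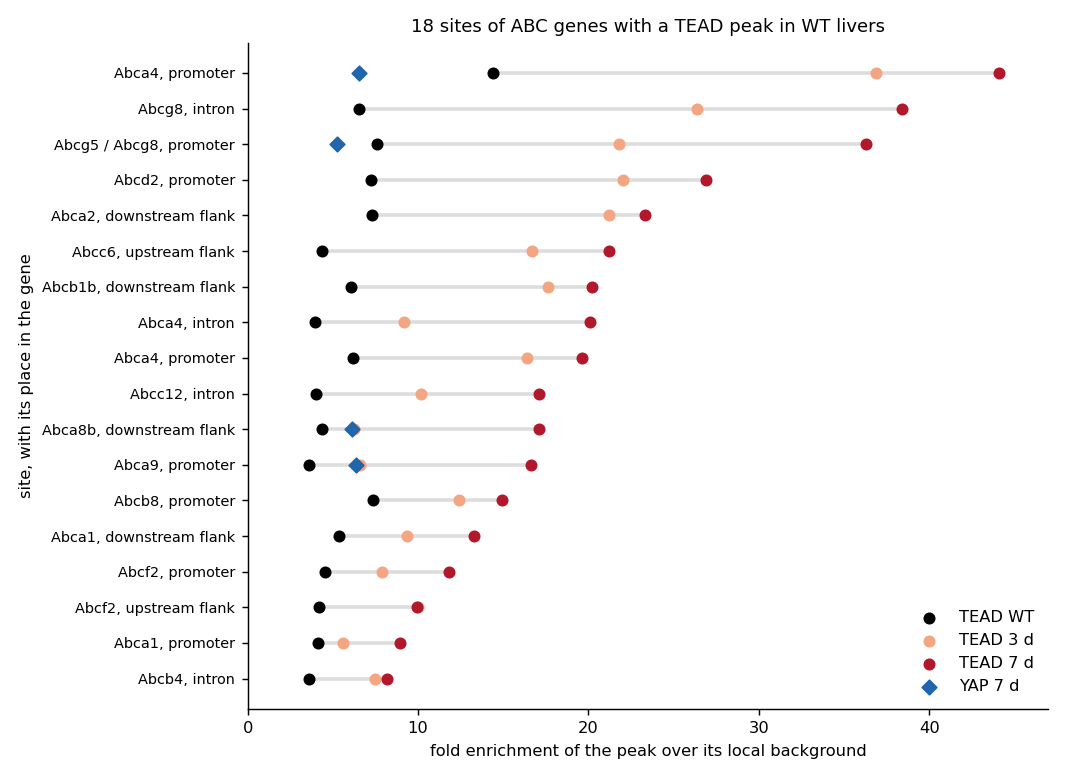
Fold enrichment over local background (x axis) of the peaks at 18 of the 19 ABC gene sites with a TEAD peak in WT, for TEAD in WT livers (black), at 3 d (light) and at 7 d (red) and for YAP at 7 d (blue diamonds). Each site is named by its gene and place, with promoter meaning any annotated start. YAP was called at 4 of these sites, and TEAD at 7 d ranged from 8.18 to 44.1. TEAD values of WT livers, from fragments of 400 bp, are not on the scale of the later lists.

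Among the 8 canalicular exporters 4 had a TEAD peak in WT livers and all had one at 3 d and at 7 d, against 20.1%, 58.8% and 59.6% of other genes. A promoter peak was found at 2 of them in WT and at 6 in each later list, against 8.68%, 38.8% and 37.5%. Abcb11, the bile salt export pump, had no TEAD peak in WT, 3 at 3 d and 4 at 7 d. Its strongest was in an intron, with 55 fragments and a fold enrichment of 9.03 at 3 d and 117 fragments and 25.4 at 7 d. The peaks at its start stayed weak, with 36 and 31 fragments at the stronger one. Abcb4, which delivers phosphatidylcholine to bile, had intron peaks alone within its body, with a fold enrichment of 3.59 in WT, 7.49 at 3 d and 8.18 at 7 d at the site of the WT list and 15.3 at 7 d at its strongest. Abcc2, the exporter of bilirubin glucuronides, had 8 peaks in each of the 3 d and 7 d lists, and at its start 36 fragments (fold enrichment 3.77) and 32 fragments (4.95). The P-glycoproteins Abcb1a and Abcb1b differed in the place of the signal. Abcb1a had no promoter peak, and its strongest peak was in an intron with fold enrichments of 15.6 at 3 d and 24.8 at 7 d. Abcb1b had a weak peak at its start (26 and 21 fragments) and a strong one in the downstream flank that was already called in WT, with fold enrichments of 6.06, 17.6 and 20.2. Abcg2, an exporter of urate and drugs, had 1 peak of 36 fragments at 3 d and 39 at 7 d, at an internal start 56.8 kb from the first base of the gene at 7 d.

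Of the 6 sinusoidal exporters, 2 were bound by TEAD in WT livers and 5 at 3 d and 7 d, against 20.1%, 58.8% and 59.6% of other genes, and Abcc1 stayed without a peak. Abca1 and Abcc6 were the ones bound in WT, the latter at the Nomo1 start in its upstream flank (fold enrichments of 4.39, 16.7 and 21.2). Abcc3, the basolateral exporter of bile acids and glucuronides, had 7 peaks in both later lists, all outside promoters, with the strongest at 7.83 and 14.6. Abcc4, which exports cyclic nucleotides and bile acids, had 6 peaks at 3 d and 5 at 7 d, none above 7.78. Abcc5 had a single peak at 7 d in an intron, with 52 fragments at 3 d and 102 at 7 d (fold enrichments of 7.89 and 23.3). No sinusoidal exporter had a YAP peak, but at 7 d only 4.78% of other genes had one, so that none of 6 is near the background.

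Some members serve peroxisomes, mitochondria or translation. Abcd2, an importer of very long chain fatty acyl-CoA into peroxisomes, had a TEAD peak over its first exon in all TEAD lists, with 55 fragments in WT (41.4 to 71.6), then 138 at 3 d (116 to 163) and 118 at 7 d (97.7 to 141), and fold enrichments of 7.26, 22.0 and 26.9. Per 1000000 tags these were 1.56, 2.51 and 3.06 fragments. The mitochondrial member Abcb8 had promoter peaks in all TEAD lists, with fold enrichments of 7.37, 12.4 and 14.9, and its later peaks also reached a promoter of Atg9b. Abcb10 had TEAD at its start at 3 d alone. Abce1, Abcf1, Abcf2 and Abcf3 all had a promoter peak at 3 d and 7 d, and of these Abcf2 also in WT livers (4.52, 7.88 and 11.8). Among other genes 38.8% had a promoter peak at 3 d, 37.5% at 7 d and 8.68% in WT. The Abce1 peaks also reached a promoter of a gene outside the family.

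By subfamily, TEAD at 7 d was called at 12 of 16 ABCA genes, 8 of 10 ABCB, 8 of 10 ABCC, 3 of 4 ABCD, the ABCE gene, 3 of 3 ABCF and 5 of 6 ABCG genes, against 59.6% of other genes. Promoter peaks ranged from 5 of 10 in ABCB and ABCC to 11 of 16 in ABCA and all of ABCF, against 37.5%. YAP at 7 d was called in ABCA (4 of 16) and ABCG (2 of 6) genes, against 4.78%. No ABCC gene had a TEAD promoter peak in WT, and 5 of 10 had one at 3 d and at 7 d, against 8.68%, 38.8% and 37.5% of other genes. The groups are small, and differences between them were not tested.

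ABC genes are long, and a longer window catches more peaks. Their median body was 64.6 kb against 15.4 kb for other genes, and their median number of annotated starts 3 against 2. Among genes of 60 kb or more, TEAD at 7 d was called at 19 of 26 ABC genes (73.1%) and 76.0% of other genes, at 3 d at 73.1% and 73.3%, and in WT livers at 34.6% and 33.0%. In this class the share of ABC genes was therefore at the background. For YAP at 7 d, it was 4 of 26 (15.4%) against 11.2%. Over all lengths the density was 3.08 TEAD peaks per 100 kb of window at 7 d in ABC genes and 2.76 in other genes, and for YAP 0.124 and 0.0993. In genes under 20 kb, 8 of 9 ABC genes (88.9%) had TEAD at 7 d against 49.4%. Promoter windows grow with the number of starts rather than with length. By this measure the shares stayed apart: in genes of 60 kb or more TEAD at 7 d was at a promoter of 15 of 26 ABC genes (57.7%) against 43.2%, and in genes with 1 annotated start of 5 of 10 (50%) against 23.6%. In genes with 4 or more starts these shares were 69.6% and 56.6%.

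**Figure D4:**
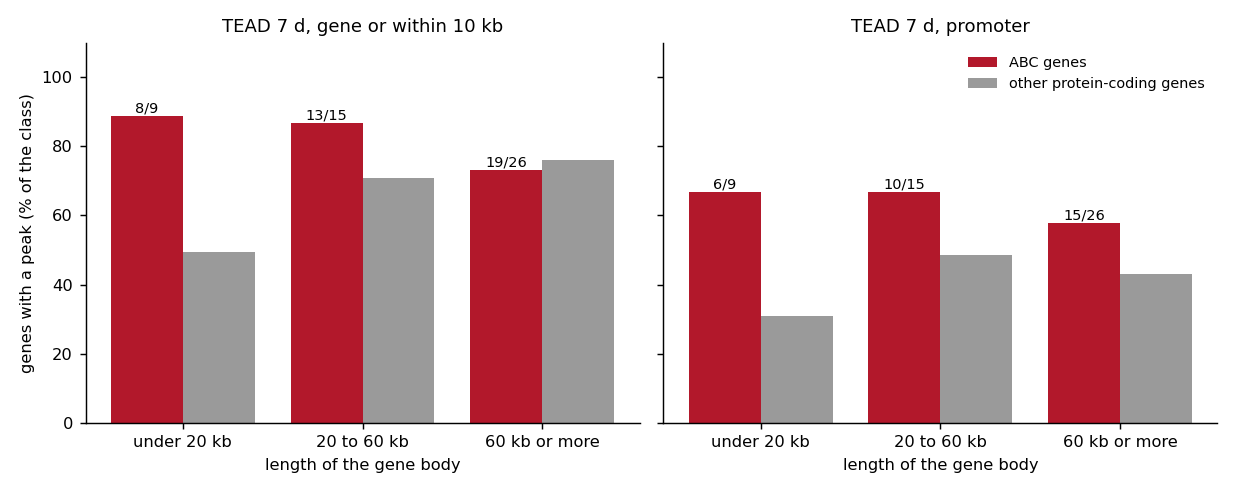
Share of genes with a TEAD peak at 7 d (% of the class) by the length of the gene body, in the gene or within 10 kb (left) and at a promoter (right), for ABC genes (red, with bound and total numbers) and other protein-coding genes (grey). In genes of 60 kb or more the left-hand shares were 73.1% and 76.0%.

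In strength the peaks of ABC genes were close to their lists. Their median fold enrichment was 5.37 over 135 peaks at 3 d, against 5.44 for the whole list, and 7.30 over 138 peaks at 7 d, against 7.30. In WT livers it was 4.52 over 19 peaks against 5.05. The strongest peak of the gene was in the top 10% of the list for 11 of the 40 bound genes at 7 d. The strongest of several peaks falls there more often than a single peak, and other genes were not counted in this way. Of the 138 peaks of 7 d, 44 were at a promoter of an ABC gene, 70 elsewhere in a body and 24 in a flank, and 119 were nearer to a start of an ABC gene than of any other.

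The change in TEAD signal between 3 d and 7 d was followed at the 84 peaks of ABC genes that were called in both lists with summits at most 100 bp apart. The normalised signal is the number of fragments at the summit divided by the tags of the library. It was higher at 7 d at 73 of the 84 (86.9%), and at 85.8% of all 23287 such peaks. The median ratio was 1.37 at the 84 and 1.36 over all 23287, so that both measures were close to the background. The exact interval of the ratio, which covers counting error alone, lay above 1 at 30 of the 84 peaks and below 1 at none. Such intervals were not counted over all matched peaks. The intron peak of Abcb11 had the highest ratio, 3.04 (2.19 to 4.27), followed by Abcc5 at 2.80 (1.99 to 3.99) and the Abca8b flank at 2.75 (1.84 to 4.16). Of these, only the Abca8b site carried YAP. At the 4 YAP sites the ratio was 1.19 (0.973 to 1.45) for Abca4, 1.65 (1.30 to 2.10) for Abcg5 and Abcg8, 2.31 (1.61 to 3.33) for Abca9, and 2.75 for Abca8b, with a median of 1.98. Over all 1238 matched peaks at a YAP peak the median was 1.68, and over the 22049 away from YAP it was 1.34. The lowest ratios, 0.756 (0.456 to 1.23) in an intron of Abcb1a and 0.761 (0.508 to 1.13) in the flank of Abca8b, had intervals that included 1.

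**Figure D5:**
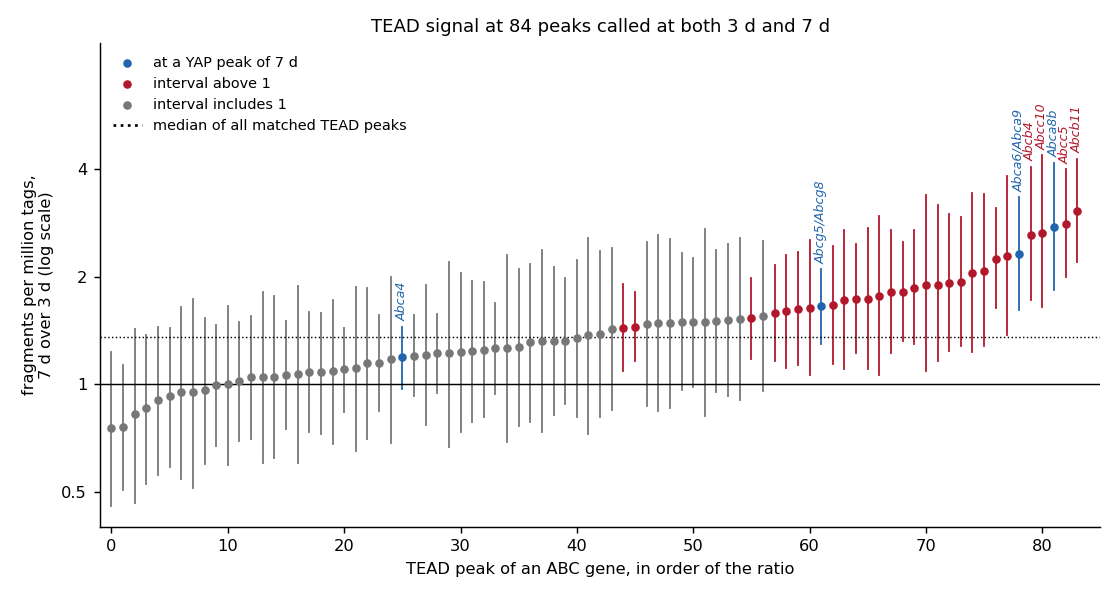
Ratio of normalised TEAD signal (fragments at the summit over library tags) at 7 d over 3 d (y axis, log scale) at the 84 peaks of ABC genes called in both lists, in order of the ratio, with 95% exact intervals for counting error. Blue points are at a YAP peak of 7 d, red points have an interval above 1, grey points one that includes 1, and the dotted line is the median of all matched TEAD peaks, 1.36. The ratios ran from 0.756 to 3.04.

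The motif was counted in the 100 bp around summits. GGAATG or CATTCC was present at 41 of 138 TEAD peaks of ABC genes at 7 d (29.7%) and at 27.6% of all 38946 TEAD peaks of that list, compared with 7.97% and 5.04% in windows of the same length 500 bp away. At 3 d it was at 22 of 135 (16.3%) against 22.8%, and in WT livers at 7 of 19 (36.8%) against 38.0%. At promoters of ABC genes it was present at 15 of 44 peaks at 7 d (34.1%), and elsewhere at 26 of 94 (27.7%). Around the YAP summits it was found at 2 of 4 sites, Abca8b and Abca9, and at 44.6% of all YAP peaks. The nearest copy to the YAP summit was 2 bp away at Abca8b, 39 bp at Abca9, 77 bp at Abcg5 and Abcg8 and 80 bp at Abca4.

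Of 14 genes for bile formation or drug transport outside the ABC family, TEAD was called at 3 in WT, 13 at 3 d and 12 at 7 d. Among all genes outside the ABC family the shares were 20.1%, 58.8% and 59.6%. At promoters it was called at 0, 13 and 7 of them, against 8.68%, 38.8% and 37.5%. YAP was called at 2 of them at 7 d, against 4.78%, and at no promoter.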

How the data were processed

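ChIP-seq peak lists for YAP and TEAD from 19 mouse liver samples were analysed, 1 list for each of 6 groups taken from the sample labels. Per the submitters' processing notes and the study's methods, the authors aligned reads to mm9 with BWA 0.6.2, handled them with SAMtools, pooled the replicates and dropped duplicate reads. Per the file headers, peaks were then called with MACS2 2.0.9 from 51 bp tags, with a p-value limit of 1e-05, against the same control of 167176362 tags for all lists, and with fragment lengths of 250 bp for YAP and of 400, 207 and 206 bp for TEAD in WT, at 3 d and at 7 d. The control thus enters each list. Pileup, as deposited, counts the extended fragments over a summit (a signal), and fold enrichment is the authors' ratio of pileup to local background. The authors' −log10 p-value ranked and filtered peaks, and their −log10 q-value was not used.

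All peak ends on the numbered chromosomes and X lay within the chromosomes of NCBIM37, so this genome and its GENCODE annotation were used directly. Peaks and windows were overlapped in Python 3.11.15 with pandas 2.3.3, and intervals were computed with scipy 1.17.1. The overlap counts were tested on simulated peaks. Intervals are 95% exact Poisson or, for ratios, exact conditional intervals, and cover counting error only. Merged lists have no replicate error, hence no p-value was computed.

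Genes described with values were those with a YAP peak at 7 d, those with a TEAD promoter peak in WT livers, named canalicular and sinusoidal exporters, and the 3 with the highest TEAD enrichment at 7 d. Abca2, Abcb9, Abcg1 and other genes named beyond these were chosen after their values were seen. A pair of members enters the counts but is not reported here by name. Members and lists were chosen with earlier results of these data known.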

Additional observations from a re-analysis of the deposited data

How the results depend on the processing

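No paired analysis was possible because peak calling used pooled replicates, and single replicates could not be left out for the same reason. In all, 170 values were recomputed under alternative settings, of which 162 stayed within 1.5 times a count or within the 95% exact binomial interval of a share (for ratios, 1 SD over peaks) and 8 did not. Many of the 162 had little or no room to move, so their number does not measure robustness. No ABC gene had a YAP peak in WT livers or at 3 d, and stricter filters or smaller windows cannot lower that. The strongest 5695 TEAD peaks of WT livers are the whole WT list. With the gene body alone, 3 ABC genes had a YAP peak at 7 d in place of 6. With peaks of at least 5-fold enrichment, TEAD in WT livers was called at 8 ABC genes in place of 16, and at 5 promoters in place of 9. With the strongest 5695 peaks of each TEAD list, 17 ABC genes were bound at 3 d and 19 at 7 d, with promoter peaks at 6 and 8, and the excess over other genes in the share with a promoter peak at 3 d was 4.28 percentage points in place of 23.2. Fewer peaks enter these counts by construction. The share of ABC genes exceeded that of other genes in each of the 45 TEAD comparisons under these settings. None of these settings divided genes by length. In genes of 60 kb or more, 73.1% of ABC genes and 76.0% of other genes had TEAD at 7 d within 10 kb. At promoters these shares were 57.7% and 43.2%. Alternatives chosen after seeing the data were promoter peaks that touch the promoters of 1 gene alone and TEAD peaks matched by any overlap, and they moved no count by more than 1.5 times. The single peaks of Abcb9 and Abcg1 had 27 fragments each and the TEAD libraries held 35168765 to 55032002 tags, and whether depth set such calls was not tested.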
